A study of Homo sapiens with 12 samples.

Results

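Collagens and laminins build the extracellular matrix, and integrins are the receptors that hold cells to it. The genes of these families described here are the protein-coding genes of the deposited count table whose symbols follow the naming pattern of collagen chains (COL), laminin chains (LAM) and integrin subunits (ITG). The pattern matched 84 genes. The integrin genes ITGA2B and ITGB3 and the chromosome 13 genes COL4A1, COL4A2 and ITGBL1 were left out by the rule, as was the pseudogene ITGB1P1, so 78 members remained among 19911 protein-coding genes. Of these, 42 encode collagen chains, 12 laminin chains and 24 integrin subunits.

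RNA was sequenced from 3 human leukemia lines, with 4 samples each. K562 is the parental line. K/VP.5 is a clonal line derived from K562 by selection with the topoisomerase poison etoposide. K562/SSedit-2 is a clone of K562 in which CRISPR/Cas9 with homology-directed repair changed the 5′ splice site between exon 19 and intron 19 (E19/I19 5′ SS) in 2 of the 3 alleles of the TOP2α gene. All lines were kept in DMEM with serum and harvested in mid-log phase. Each derived line is 1 clone, so a difference from K562 belongs to that clone and cannot be told apart from differences between any clones of K562. The labels do not say whether the 4 samples of a line were separate cultures, so the p-values measure only the spread between those samples.

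Fibrillar, network-forming and membrane-bound collagens differ in how their helical chains assemble, while laminins join an alpha, a beta and a gamma chain into the sheets of basement membranes. An integrin pairs an alpha with a beta subunit, and the pair decides which matrix protein is bound. K562 cells grow in suspension and are known for the fibronectin receptor formed by ITGA5 and ITGB1.

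Total counts of replicates 1 to 4 were 38404128, 43648830, 36883518 and 40010995 for the parental line, 39944440, 36365611, 34037063 and 28981722 for the etoposide-selected line and 36568717, 37619488, 32355417 and 34025528 for the edited clone. Expression is given as CPM, the count scaled to the library's total in tested genes with its TMM factor, and 3 counts correspond to between 0.0691 and 0.102 CPM depending on the library. Where values are given for the 3 lines together, the order is K562, K/VP.5, K562/SSedit-2. A gene was tested if it had enough counts by edgeR's filter, which 18626 genes of the table passed. Among the 78 members, 45 were tested (21 collagens, 7 laminins and 17 integrins) and 33 were not. A member that passed only through the line where it was high had to differ between lines, so the counts of changed members describe the tested members and support nothing further. Differential expression was called at a fold change of 2 (log2 of 1) and an adjusted p under 0.1 (edgeR's quasi-likelihood test, with p-values of all tested genes adjusted by Benjamini and Hochberg's method), written from here on as the edgeR adjusted p.

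All 10 listed markers of K562 cells were tested, and their summed expression was 3386 to 4412 CPM in K562, 3028 to 3272 CPM in K/VP.5 and 4674 to 5173 CPM in K562/SSedit-2, with the transferrin receptor gene TFRC the most abundant. TOP2A, the edited gene, was at 488, 352, 380.0 and 388 CPM in K562 replicates 1 to 4, 281, 269, 282 and 268 CPM in K/VP.5 and 203, 177, 179 and 208 CPM in K562/SSedit-2. Its values in the 3 lines did not overlap, with K562/SSedit-2 lowest and K562 highest.

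Most calls against K562 were made in K/VP.5. In K/VP.5, 16 of the 45 tested members were higher than K562, next to 8.98% of all tested genes, and 9 were lower, next to 6.66%. The higher members were 8 collagens, 4 laminins and 4 integrins, and the lower ones 4 collagens, 1 laminin and 4 integrins. Over all tested members, the median log2 fold change was 0.37, beside 0.00675 for all tested genes. COL23A1, COL15A1 and LAMC3 averaged 1.2, 0.613 and 0.685 CPM in K562 and 82.3, 39.6 and 44.8 CPM in K/VP.5. In the other direction, COL4A5, LAMA4 and ITGB5 were lower in K/VP.5, with log2 fold changes of -3.47, -2.68 and -2.29. RNA of whole cultures was measured, so fewer cells that express a gene and less of its RNA per cell cannot be told apart.

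In the edited clone, fewer members differed from the parental line. In K562/SSedit-2, 2 of the 45 tested members, LAMB3 and ITGB5, were higher, next to 0.805% of all tested genes. The 6 lower ones, next to 1.26%, were COL23A1, COL3A1, COL5A2, COL6A1, LAMB1 and LAMC3. The median log2 fold change of the tested members was -0.25, beside -0.0127 for all tested genes. The 6 lower members became 3 when K562 replicate 2, K562/SSedit-2 replicate 3 or K562/SSedit-2 replicate 4 was left out, and 9 without K562/SSedit-2 replicate 1. The lower genes of the whole table numbered 199, 225, 193 and 295 in these fits, in place of 234. Against K/VP.5, K562/SSedit-2 had 5 members higher, next to 6.2% of all tested genes, and 15 lower, next to 9.62%, with a median log2 fold change of -0.44 beside -0.0133.

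Both comparisons with K562 use the same K562 samples, so their fold changes are tied and are set side by side only. COL23A1, COL6A1, LAMB1 and LAMC3 were higher in K/VP.5 and lower in K562/SSedit-2. ITGB5 was lower in K/VP.5 and higher in K562/SSedit-2. COL3A1 and COL5A2 were lower in both lines, and LAMB3 was higher in both. Of the other tested members, 11 were called higher and 6 lower in K/VP.5 but not called in K562/SSedit-2, and 20 were called in neither, next to 8.06%, 6.17% and 83.7% of all tested genes. The members called in both lines stand next to 0.494% of all tested genes higher in K/VP.5 and lower in K562/SSedit-2, 0.129% with the reverse, 0.365% lower in both and 0.43% higher in both. With the replicate number as a block, COL6A1 was no longer called in K562/SSedit-2, and COL6A3 was called lower in both lines. The plot of log2 fold changes sets both comparisons side by side for each tested member.

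**Figure D1:**
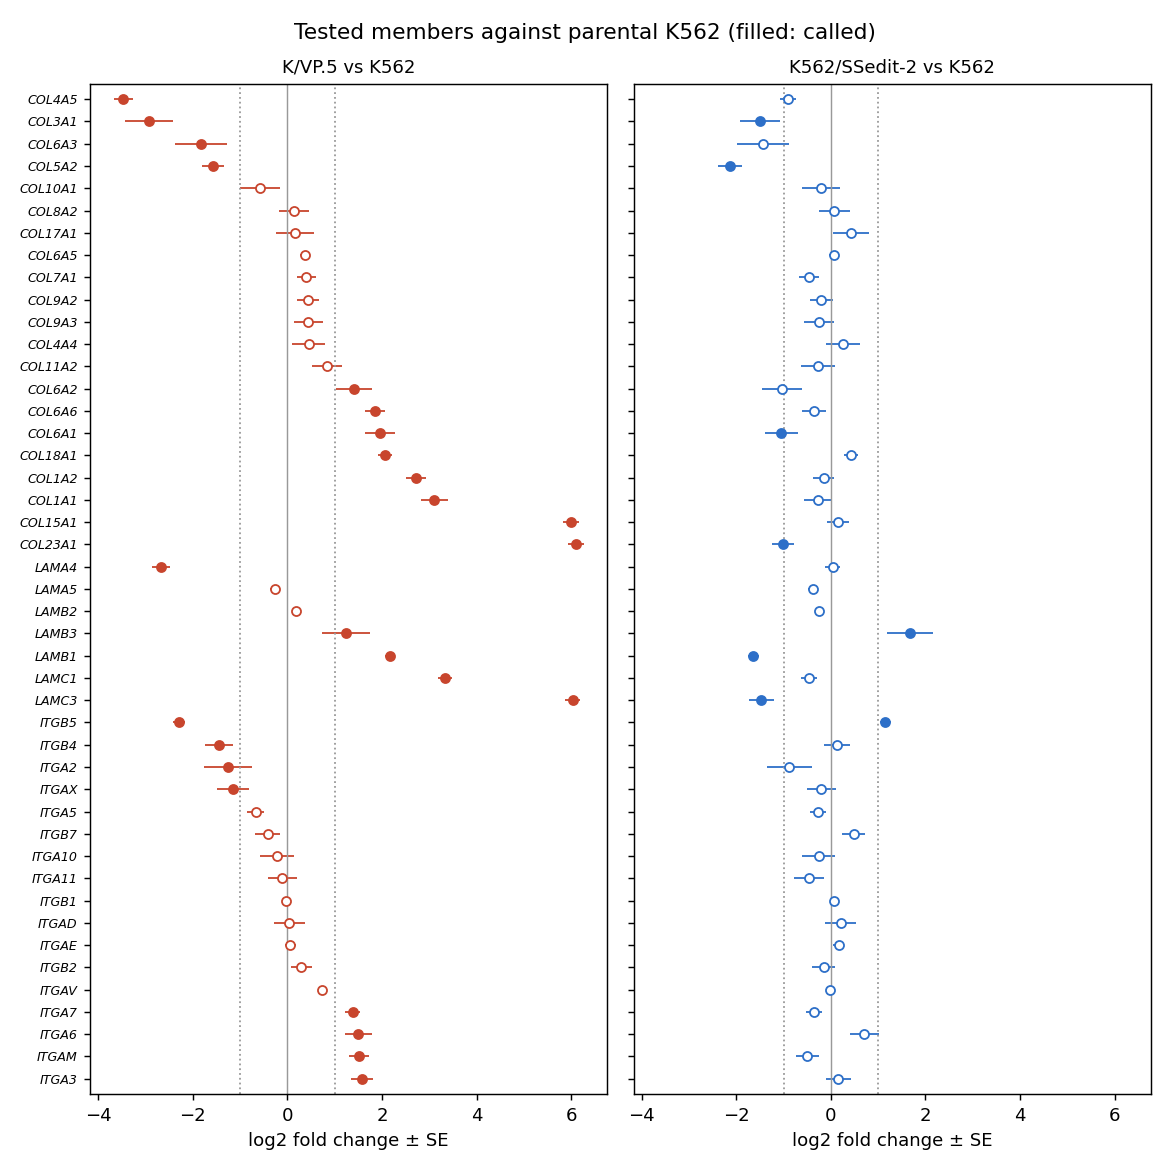
Log2 fold changes of the tested collagen, laminin and integrin genes against K562, for K/VP.5 and for the edited clone K562/SSedit-2 (n = 4 per line). Filled points were called, bars are standard errors and the dotted lines mark a 2-fold change. COL23A1, LAMC3 and COL15A1 stand at log2 fold changes of 6.09, 6.03 and 5.99 in K/VP.5 and at -1.01, -1.47 and 0.15 in K562/SSedit-2.

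Libraries of the same line differed among themselves in their collagens. K562 replicate 2 was the highest of the 4 K562 libraries for 12 of the 21 tested collagens, among them COL1A1, COL1A2, COL3A1, COL6A1, COL6A2 and COL6A3. In K/VP.5, replicate 2 was highest for 11 of the 21, and in K562/SSedit-2, replicate 1 for 13, so a leading library is not particular to K562. K/VP.5 replicate 2 was also highest for 9 of 17 tested integrins and 3 of 7 laminins. For K562/SSedit-2 replicate 1 these were 6 of 17 and 5 of 7, and for K562 replicate 2 they were 4 of 17 and 2 of 7. The share over all tested genes was not computed, so nothing particular to collagens is shown. The summed expression of 7 fibroblast markers, 2 of them tested and none at 0 in all libraries, was 1.68, 2.81, 1.78 and 1.73 CPM in K562 replicates 1 to 4. The sum was 1.4, 1.97, 1.68 and 1.39 CPM in K/VP.5 and 2.12, 1.82, 1.31 and 1.37 CPM in K562/SSedit-2. PDGFRB was the most abundant of these markers, with a mean of 1.02 CPM in K562. Within K562, the fibroblast marker sum was thus highest in replicate 2, which was also highest for COL1A1, COL1A2, COL6A1, COL6A2 and COL6A3 but lowest for COL6A5 and COL6A6. In K/VP.5 replicate 2 and K562/SSedit-2 replicate 1, the libraries leading most collagens there, the sum was also the highest of the line. The part of the fibroblast markers in the collagen results was not tested. In the plot of collagens by library, most genes spread more widely in K562 and in K562/SSedit-2, and K/VP.5 is narrower.

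**Figure D2:**
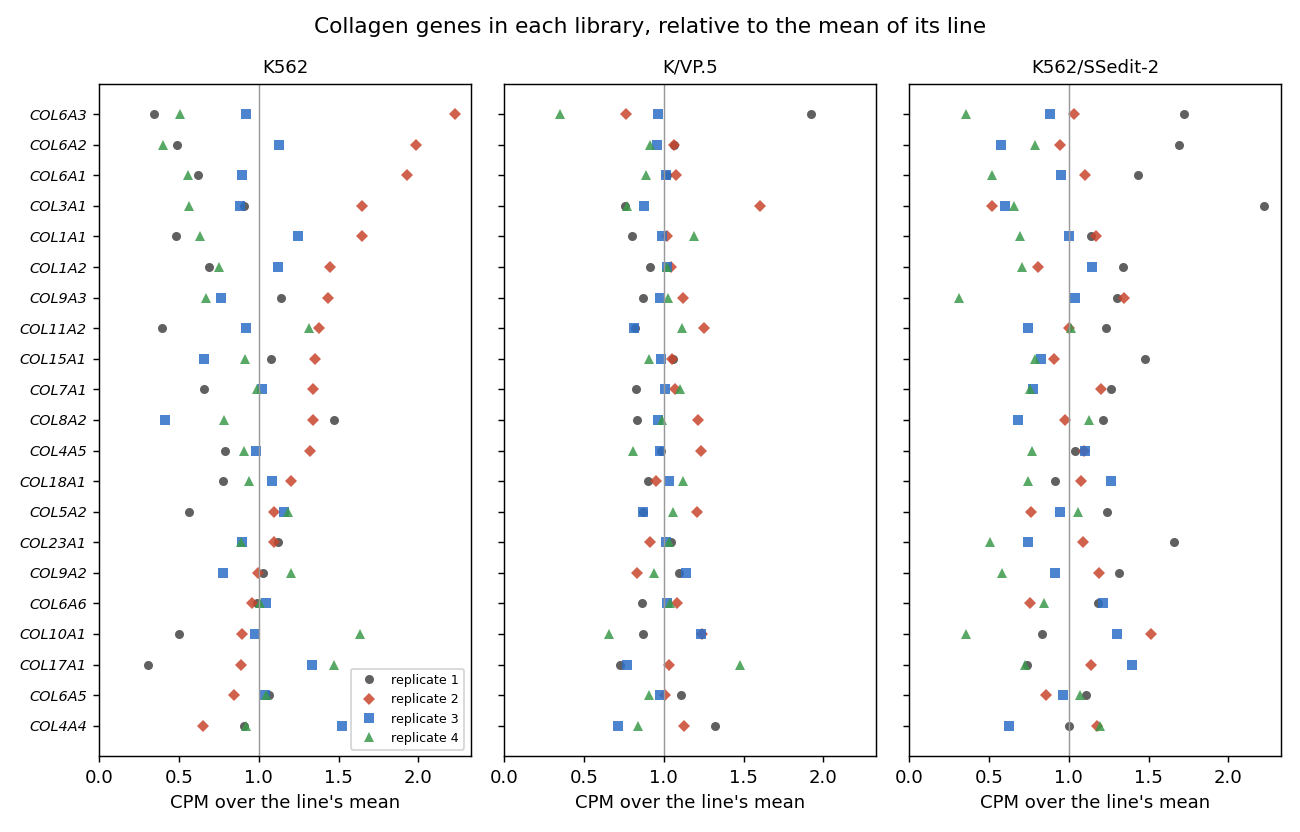
CPM of each tested collagen gene in each library, divided by the mean of its line, with 1 panel per line and 1 symbol per replicate number. K562 replicate 2 lies farthest to the right for 12 of the 21 genes in K562.

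COL23A1, a collagen with a membrane-spanning segment, and COL15A1, a collagen of basement membrane zones from the multiplexin group, were low in K562 and far higher in K/VP.5. Their promoter windows are shown because these genes changed most among the collagens. RefSeq (GRCh38.p14) lists 250 bases before to 50 bases after each start site, and 55 of the 78 members have such a window. The windows are chr5:178590344-178590643 (minus strand) for COL23A1 and chr9:98943657-98943956 (plus strand) for COL15A1, each 300 bases long and printed 5′ to 3′ with GGGCGG or its complement CCGCCC in capitals.
COL23A1: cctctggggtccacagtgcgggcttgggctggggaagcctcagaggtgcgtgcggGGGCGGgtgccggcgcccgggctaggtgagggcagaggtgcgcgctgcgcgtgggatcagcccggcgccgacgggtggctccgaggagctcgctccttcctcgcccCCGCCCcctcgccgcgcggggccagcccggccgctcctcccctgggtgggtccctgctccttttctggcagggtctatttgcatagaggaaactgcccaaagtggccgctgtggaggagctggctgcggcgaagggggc
COL15A1: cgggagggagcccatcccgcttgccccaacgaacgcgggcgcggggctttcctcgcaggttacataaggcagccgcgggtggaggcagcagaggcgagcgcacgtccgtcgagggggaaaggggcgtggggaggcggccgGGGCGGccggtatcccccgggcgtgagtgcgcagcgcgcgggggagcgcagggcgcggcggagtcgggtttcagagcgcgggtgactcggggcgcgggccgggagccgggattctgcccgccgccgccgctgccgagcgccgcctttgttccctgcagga

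GGGCGG was found 2 times in the COL23A1 window and 1 time in that of COL15A1, counting both strands, and 45% of all 35116 promoter windows hold it. CCAAT or its complement ATTGG, present in 34.6% of all windows, TATAAA, present in 11.5%, and AGATAA or TGATAA, present in 16.3%, have no match in either window. G and C make up 73.3% of the bases for COL23A1 and 76.0% for COL15A1, beside a median of 58.7% over all windows, and CG dinucleotides number 28 and 45, beside a median of 14. A match describes letters in the window and does not show a bound site.

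COL23A1 (ENSG00000050767, chromosome 5) was at 1.35, 1.31, 1.08 and 1.07 CPM in K562, 85.9, 75.3, 83.3 and 84.8 CPM in K/VP.5 and 0.977, 0.643, 0.438 and 0.298 CPM in K562/SSedit-2. Every K/VP.5 library was far above every library of the other lines, and every K562/SSedit-2 library was below every K562 library. The log2 fold change was 6.09 (SE 0.164, edgeR adjusted p = 4.25e-14) for K/VP.5 against K562. Against K/VP.5, the edited clone had a log2 fold change of -7.1 (SE 0.181, edgeR adjusted p = 2.24e-14). Between K562/SSedit-2 and K562 it was -1.01 (SE 0.233, edgeR adjusted p = 0.0137), close to the 2-fold cutoff, and it fell short of 2-fold in 7 of 16 alternative fits. Leaving out K562 replicate 1 or 2 gave -0.95 or -0.95, and leaving out K562/SSedit-2 replicate 3 or 4 gave -0.88 or -0.78. Upper-quartile scaling gave -0.98 and a filter of 1 CPM in 4 samples -0.99, and RLE scaling also ended just short of 2-fold.

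COL15A1 (ENSG00000204291, chromosome 9) was at 0.66, 0.83, 0.404 and 0.559 CPM in K562, 42, 41.7, 38.8 and 35.9 CPM in K/VP.5 and 1.0, 0.616, 0.563 and 0.537 CPM in K562/SSedit-2. The K/VP.5 libraries again stood apart, while K562 and K562/SSedit-2 overlapped, with K562/SSedit-2 replicate 1 above the other libraries of both lines. K/VP.5 differed from K562 by a log2 fold change of 5.99 (SE 0.174, edgeR adjusted p = 1.08e-13) and K562/SSedit-2 from K/VP.5 by -5.85 (SE 0.175, edgeR adjusted p = 1.46e-13). No call was made between K562/SSedit-2 and K562, at 0.15 (SE 0.236, edgeR adjusted p = 0.779).

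COL18A1 (ENSG00000182871, chromosome 21), the multiplexin from which endostatin is released, was the collagen with the most counts in all 3 lines. Its values were 61.9, 95.9, 86.6 and 75.1 CPM in K562, 300.0, 316, 345 and 373 CPM in K/VP.5 and 97.8, 116, 136 and 79.8 CPM in K562/SSedit-2. All K/VP.5 libraries lay well above the highest library of the other lines, and K562/SSedit-2 overlapped K562. The log2 fold change of K/VP.5 against K562 was 2.06 (SE 0.151, edgeR adjusted p = 1.03e-08), and that of K562/SSedit-2 against K/VP.5 was -1.64 (SE 0.149, edgeR adjusted p = 1.33e-07). K562/SSedit-2 and K562 differed by 0.42 (SE 0.146, edgeR adjusted p = 0.0903), less than 2-fold. COL18A1 shares 18.5% of its exon bases with SLC19A1, the reduced folate carrier gene on the other strand, and the strand setting of the counting is not stated. SLC19A1 averaged 161, 159 and 123 CPM in the 3 lines. Its log2 fold changes against K562 were -0.02 in K/VP.5 and -0.40 (edgeR adjusted p = 0.00399) in K562/SSedit-2, and K562/SSedit-2 against K/VP.5 gave -0.38 (edgeR adjusted p = 0.000675).

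Per kilobase of exon, COL18A1 was also the most abundant collagen RNA, at 9.44 ± 1.74, 39.4 ± 3.8 and 12.7 ± 2.83 CPM per kb in the 3 lines (mean ± SD, n = 4). COL6A5, a chain of the type VI family, followed in K562 and K562/SSedit-2, at 2.29 ± 0.235 and 2.41 ± 0.277 CPM per kb. In K/VP.5 the following places went to COL23A1 at 18.9 ± 1.11 and COL15A1 at 5.95 ± 0.428 CPM per kb. Summed over all 42 collagen members, expression was 143 ± 26.4 CPM in K562, 573 ± 31.6 CPM in K/VP.5 and 157 ± 25.3 CPM in K562/SSedit-2 (mean ± SD, n = 4). COL18A1 alone made up 55.8%, 58.1% and 68.2% of these sums. In the plot of values by sample, the multiplexins and COL23A1 carry most of the collagen rise in K/VP.5.

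**Figure D3:**
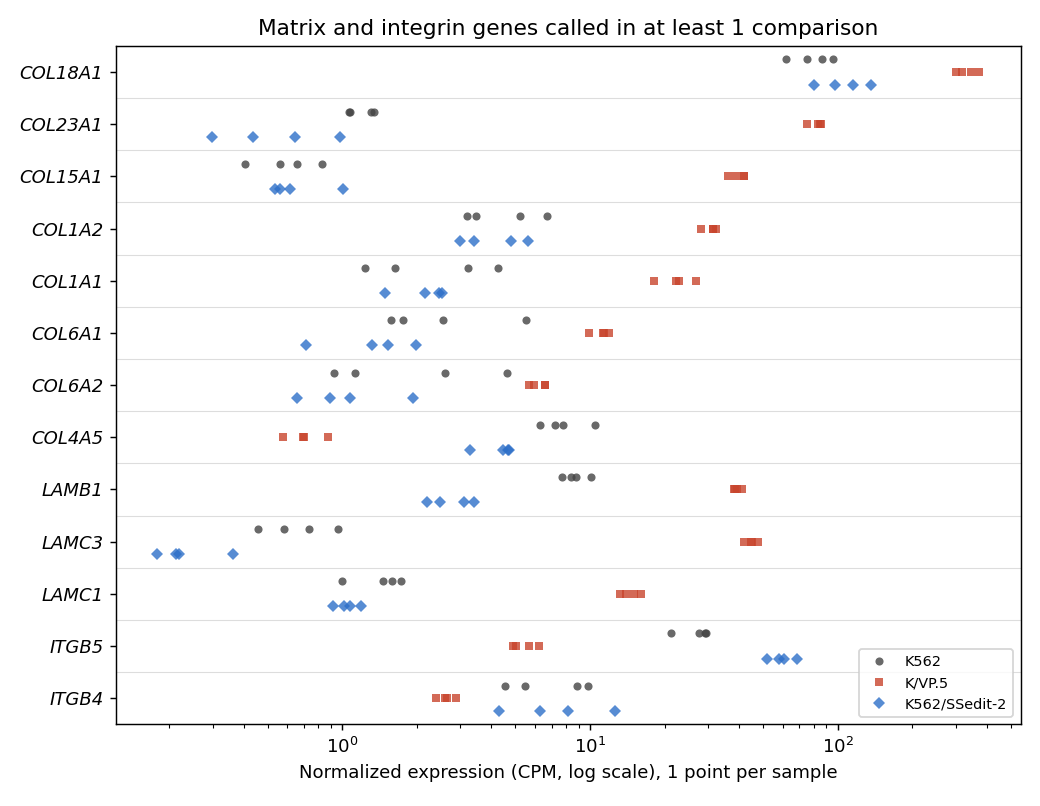
CPM of the 13 members that were called in at least 1 comparison and reached a mean of 5 CPM in at least 1 line, 1 point per sample on a log axis (n = 4 per line). COL23A1 runs from 0.298 CPM in K562/SSedit-2 to 85.9 CPM in K/VP.5, and ITGB5 from 4.88 CPM in K/VP.5 to 68.7 CPM in K562/SSedit-2.

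Type I collagen, the main collagen of skin, bone and tendon, is made of chains from COL1A1 and COL1A2, and both genes were higher in K/VP.5. COL1A1 (ENSG00000108821, chromosome 17) was at 1.24, 4.26, 3.23 and 1.63 CPM in K562, 18, 22.9, 22.2 and 26.7 CPM in K/VP.5 and 2.46, 2.52, 2.16 and 1.49 CPM in K562/SSedit-2. The K/VP.5 libraries lay above all others, and K562 spread widely around K562/SSedit-2, with replicate 2 highest. Its log2 fold changes were 3.11 (SE 0.277, edgeR adjusted p = 1.13e-07) in K/VP.5 and -0.27 (SE 0.302, edgeR adjusted p = 0.662) in K562/SSedit-2, both against K562. COL1A2 (ENSG00000164692, chromosome 7) was at 3.19, 6.72, 5.19 and 3.48 CPM in K562, 28.1, 32.2, 31.4 and 31.4 CPM in K/VP.5 and 5.64, 3.4, 4.82 and 2.98 CPM in K562/SSedit-2. Again K/VP.5 was apart from both other lines, which overlapped. Its log2 fold change against K562 was 2.72 (SE 0.212, edgeR adjusted p = 2.13e-08) in K/VP.5 and -0.15 (SE 0.221, edgeR adjusted p = 0.757) in K562/SSedit-2. Against K/VP.5, K562/SSedit-2 was lower for COL1A1 by a log2 fold change of -3.37 (SE 0.286, edgeR adjusted p = 5.65e-08), and for COL1A2 the value was -2.87 (SE 0.215, edgeR adjusted p = 1.36e-08). Without K562 replicate 2, the small differences between K562/SSedit-2 and K562 changed sign, to 0.10 for COL1A1 and 0.09 for COL1A2. The ratio of COL1A1 to COL1A2 in CPM per kb was 0.634 ± 0.144, 0.875 ± 0.106 and 0.637 ± 0.171 in the 3 lines.

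Type III and type V collagen, which join type I in fibrils, did not follow it. COL3A1 averaged 1.03, 0.133 and 0.364 CPM in the 3 lines, and COL5A2, which lies 19.2 kb from it on chromosome 2, averaged 2.48, 0.835 and 0.564 CPM. COL3A1 was lower in K/VP.5 than K562, with a log2 fold change of -2.92 (SE 0.502, edgeR adjusted p = 0.000146) and no overlap between libraries. In K562/SSedit-2, its values overlapped K562 and the log2 fold change was -1.5 (SE 0.425, edgeR adjusted p = 0.0413). That call was lost without K562 replicate 2 (-1.13) or K562/SSedit-2 replicate 2, 3 or 4 (-1.26, -1.31 and -1.33), and the log2 fold change was -2.26 without K562/SSedit-2 replicate 1. COL5A2 was lower in both derived lines, by -1.57 (SE 0.238, edgeR adjusted p = 4.14e-05) in K/VP.5 and -2.14 (SE 0.251, edgeR adjusted p = 4.06e-05) in K562/SSedit-2, and neither range of libraries overlapped K562. Against K/VP.5, COL3A1 was higher in K562/SSedit-2 at 1.43 (SE 0.578, edgeR adjusted p = 0.0527). This call was lost with limma voom (1.16), without K/VP.5 replicate 1 (1.33) and without K562/SSedit-2 replicate 1 (0.69).

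COL11A2, a fibrillar collagen of cartilage, averaged 0.351, 0.639 and 0.294 CPM in the 3 lines. It was called lower in K562/SSedit-2 than K/VP.5, at -1.1 (SE 0.333, edgeR adjusted p = 0.0119), but fell short of 2-fold without K/VP.5 replicate 2 (-0.95) or K562/SSedit-2 replicate 3 (-0.98). Between K/VP.5 and K562 it reached 2-fold only without K562 replicate 2, with 1.01 in place of 0.83, and fell to 0.56 without K562 replicate 1. COL2A1, the main collagen of cartilage, was not tested, and is named because of its values. It had 15, 6, 10 and 18 counts in K/VP.5 replicates 1 to 4, 0, 1, 0 and 2 in K562 and 1, 1, 1 and 0 in K562/SSedit-2. Other untested collagens had most counts in K562. Summed over the libraries of each line, COL5A1 had 55, 14 and 14 counts and COL16A1 had 42, 21 and 14.

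Type VI collagen forms beaded filaments around cells from the chains of COL6A1, COL6A2 and a longer chain such as that of COL6A3. COL6A1 (ENSG00000142156, chromosome 21) was at 1.76, 5.5, 2.56 and 1.58 CPM in K562, 11.4, 12, 11.3 and 9.89 CPM in K/VP.5 and 1.98, 1.53, 1.31 and 0.716 CPM in K562/SSedit-2. K/VP.5 was above both lines in every library, and K562 replicate 2 was far above the other K562 libraries. The log2 fold change of K/VP.5 against K562 was 1.95 (SE 0.309, edgeR adjusted p = 6.6e-05), or 2.48 without K562 replicate 2. COL6A2 (ENSG00000142173, chromosome 21), 93.1 kb from COL6A1, was at 1.13, 4.6, 2.61 and 0.924 CPM in K562, 6.57, 6.6, 5.94 and 5.66 CPM in K/VP.5 and 1.93, 1.07, 0.657 and 0.895 CPM in K562/SSedit-2. Replicate 2 was again the highest of K562, and every K/VP.5 library stood above every library of the other lines. K/VP.5 and K562 differed by a log2 fold change of 1.41 (SE 0.373, edgeR adjusted p = 0.00542), or 1.98 without K562 replicate 2. K562/SSedit-2 was below K/VP.5 by log2 fold changes of -3.0 (SE 0.338, edgeR adjusted p = 1.64e-06) for COL6A1 and -2.43 (SE 0.407, edgeR adjusted p = 0.000109) for COL6A2.

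Between K562/SSedit-2 and K562, COL6A1, COL6A2 and COL6A3 gave values near or past 2-fold that depended on single libraries. COL6A1 was called lower, at -1.04 (SE 0.349, edgeR adjusted p = 0.081), although the lines overlapped. Fitted with the replicate number as block, it was -0.99 (edgeR adjusted p = 0.0379), short of 2-fold. The call was also lost with limma voom (-0.94) and with only these lines in the fit (-1.03). Leaving out K562 replicate 2 (-0.49), K562 replicate 3 (-1.09) or K562/SSedit-2 replicate 2, 3 or 4 (-1.08, -1.01 and -0.82) lost it too. COL6A2, at -1.02 (SE 0.42, edgeR adjusted p = 0.153), was not called. It was called with no filter on low counts (-1.05) and without K562 replicate 1 (-1.24), K562 replicate 4 (-1.29) or K562/SSedit-2 replicate 1 (-1.4), while without K562 replicate 2 the difference shrank to -0.43. COL6A3, at -1.44 (SE 0.543, edgeR adjusted p = 0.12), was not called either, but was with the block, at -1.42 (edgeR adjusted p = 0.0596). It was likewise called with no filter (-1.46) and without K562 replicate 1 (-1.72), K562 replicate 4 (-1.66) or K562/SSedit-2 replicate 1 (-1.83). Leaving out K562 replicate 2 moved it the other way, to -0.66.

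COL6A3 averaged 3.16 ± 2.7, 0.871 ± 0.58 and 1.17 ± 0.656 CPM in the 3 lines (SD, n = 4), with K562 replicate 2 at 7.04 CPM. It was lower in K/VP.5 than K562, in contrast to COL6A1 and COL6A2, at -1.83 (SE 0.559, edgeR adjusted p = 0.0135). The libraries overlapped, and the log2 fold change was -1.08 without K562 replicate 2 and -2.38 without K/VP.5 replicate 1. COL6A6, another long chain, averaged 0.361, 1.31 and 0.283 CPM and was higher in K/VP.5 at 1.84 (SE 0.208, edgeR adjusted p = 1.7e-06), while its neighbour COL6A5, 32.3 kb away on chromosome 3, was called in no comparison. COL6A5 averaged 22 ± 2.25, 28.3 ± 2.36 and 23.1 ± 2.65 CPM, with a log2 fold change of 0.37 (SE 0.0997, edgeR adjusted p = 0.00617) in K/VP.5. The ratio of COL6A1 to COL6A2 in CPM per kb was 1.31 ± 0.322, 1.73 ± 0.0731 and 1.27 ± 0.506 in the 3 lines. COL6A1 and COL6A2 lie on chromosome 21 with COL18A1, 468 kb from COL6A1, and with ITGB2, 473 kb from COL18A1 on its other side.

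COL4A5 (ENSG00000188153, chromosome X), a type IV collagen chain of basement membranes whose mutations cause Alport syndrome, had the largest fall among the tested collagens in K/VP.5. It was at 6.3, 10.5, 7.8 and 7.24 CPM in K562, 0.70, 0.878, 0.695 and 0.576 CPM in K/VP.5 and 4.44, 4.66, 4.69 and 3.28 CPM in K562/SSedit-2. No library overlapped between lines, with K562 highest, K562/SSedit-2 between and K/VP.5 lowest. Against K562, the log2 fold change was -3.47 (SE 0.201, edgeR adjusted p = 5.47e-10) in K/VP.5. For K562/SSedit-2 it was -0.90 (SE 0.166, edgeR adjusted p = 0.00267), less than 2-fold and not called. K562/SSedit-2 was above K/VP.5 at 2.57 (SE 0.205, edgeR adjusted p = 2.79e-08). COL4A6 starts 0.341 kb from COL4A5 on the other strand and was not tested, with at most 8 counts in any library. Of this pair of genes on opposite strands, only COL4A5 thus had enough counts to test.

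The promoter windows of COL4A5, chrX:108439588-108439887 (plus strand), and COL4A6, chrX:108439409-108439708 (minus strand), share 121 bases and are shown because this pair of genes faces away from a common stretch. They are from RefSeq (GRCh38.p14), with CCAAT or its complement ATTGG in capitals.
COL4A5: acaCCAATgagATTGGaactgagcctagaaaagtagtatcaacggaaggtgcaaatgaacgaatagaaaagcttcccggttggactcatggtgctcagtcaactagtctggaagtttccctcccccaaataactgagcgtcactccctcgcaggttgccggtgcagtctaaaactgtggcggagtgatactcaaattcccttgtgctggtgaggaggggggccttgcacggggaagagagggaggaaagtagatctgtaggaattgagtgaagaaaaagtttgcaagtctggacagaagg
COL4A6: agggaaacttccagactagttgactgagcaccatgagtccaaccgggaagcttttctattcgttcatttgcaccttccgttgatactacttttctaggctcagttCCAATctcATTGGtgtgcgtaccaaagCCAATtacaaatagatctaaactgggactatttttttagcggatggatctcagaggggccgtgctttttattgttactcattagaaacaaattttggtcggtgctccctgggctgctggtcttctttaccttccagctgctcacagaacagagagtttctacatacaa

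CCAAT or ATTGG was found 2 times in the COL4A5 window and 3 times in the COL4A6 window, and GGGCGG in neither. Because the windows overlap, some of these matches are the same bases read on opposite strands. G and C make up 49.3% and 43.7% of the bases, with 8 and 7 CG dinucleotides, below the medians of 58.7% and 14 over all windows. COL4A4 and COL4A3, another head-to-head pair, start 0.171 kb apart on chromosome 2. COL4A4 averaged 0.212, 0.283 and 0.25 CPM in the 3 lines and was called in no comparison. COL4A3 was not tested, with at most 16 counts in any library.

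Of the remaining tested collagens, COL7A1, which forms anchoring fibrils under epithelia, averaged 4.34 ± 1.2, 5.73 ± 0.694 and 3.15 ± 0.854 CPM in the 3 lines and was called in no comparison. Its largest difference was -0.86 (SE 0.209, edgeR adjusted p = 0.00288) for K562/SSedit-2 against K/VP.5. COL9A3, a cartilage collagen, averaged 3.43, 4.68 and 2.89 CPM in the same order. COL8A2, COL9A2, COL10A1 and COL17A1 stayed below 5 CPM in every line and were called in none of the 3 comparisons.

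Among the laminins, genes for a beta and a gamma chain that are known to assemble together rose in K/VP.5. LAMB1 (ENSG00000091136, chromosome 7) and LAMC1 (ENSG00000135862, chromosome 1) encode the beta1 and gamma1 chains found in most basement membranes. Their promoter windows, chr7:108003112-108003411 (minus strand) and chr1:183023170-183023469 (plus strand), are shown because both genes rose in K/VP.5, and come from RefSeq (GRCh38.p14) with GGGCGG or CCGCCC in capitals.
LAMB1: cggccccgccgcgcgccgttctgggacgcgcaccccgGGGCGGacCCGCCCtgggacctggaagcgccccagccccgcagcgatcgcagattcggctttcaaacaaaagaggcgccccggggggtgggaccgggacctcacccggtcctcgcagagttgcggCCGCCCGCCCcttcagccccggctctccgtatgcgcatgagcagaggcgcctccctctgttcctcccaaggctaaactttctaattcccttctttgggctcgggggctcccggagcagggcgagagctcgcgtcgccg
LAMC1: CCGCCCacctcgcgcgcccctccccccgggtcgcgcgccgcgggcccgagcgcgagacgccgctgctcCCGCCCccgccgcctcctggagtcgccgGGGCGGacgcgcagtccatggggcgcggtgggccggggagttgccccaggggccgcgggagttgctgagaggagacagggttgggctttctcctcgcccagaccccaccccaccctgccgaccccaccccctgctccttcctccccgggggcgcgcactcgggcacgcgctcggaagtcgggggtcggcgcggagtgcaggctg

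GGGCGG, counting both strands, occurs 4 times in the LAMB1 window and 3 times in the LAMC1 window, and no other motif named above for COL23A1 occurs in either. The share of G and C is 71.0% for LAMB1 and 79.0% for LAMC1, with 35 and 41 CG dinucleotides. Over the 31 tested members with a window, 20 hold GGGCGG, 4 hold CCAAT, 6 hold the TATAAA motif and 2 hold the AGATAA or TGATAA motif, and the median share of G and C is 69.3%.

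LAMB1 was at 10.1, 8.75, 8.4 and 7.71 CPM in K562, 38.3, 41, 39.2 and 38.6 CPM in K/VP.5 and 3.4, 3.11, 2.47 and 2.21 CPM in K562/SSedit-2. The lines did not overlap, with K/VP.5 highest and K562/SSedit-2 lowest. It was higher in K/VP.5 than K562 at a log2 fold change of 2.17 (SE 0.112, edgeR adjusted p = 1.33e-10), and lower in K562/SSedit-2 at -1.64 (SE 0.125, edgeR adjusted p = 3.93e-07). The distance between the derived lines was -3.8 (SE 0.126, edgeR adjusted p = 4.7e-13), for K562/SSedit-2 against K/VP.5. LAMC1 was at 1.59, 1.73, 0.996 and 1.46 CPM in K562, 14, 16.1, 15.1 and 13.2 CPM in K/VP.5 and 0.921, 1.02, 1.19 and 1.07 CPM in K562/SSedit-2. Only K/VP.5 stood apart, and the K562 values overlapped those of K562/SSedit-2. Its log2 fold change was 3.33 (SE 0.149, edgeR adjusted p = 2.23e-11) in K/VP.5 and -0.47 (SE 0.174, edgeR adjusted p = 0.116) in K562/SSedit-2, both against K562. K562/SSedit-2 against K/VP.5 gave -3.8 (SE 0.157, edgeR adjusted p = 7.25e-12).

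LAMC3 (ENSG00000050555, chromosome 9) encodes the gamma3 chain, an alternative to the gamma1 chain. It was at 0.962, 0.737, 0.457 and 0.583 CPM in K562, 41.9, 44.6, 44.9 and 47.7 CPM in K/VP.5 and 0.363, 0.214, 0.219 and 0.179 CPM in K562/SSedit-2. Each line kept to its own range, with K/VP.5 highest and K562/SSedit-2 lowest. The log2 fold change was 6.03 (SE 0.157, edgeR adjusted p = 2.94e-14) in K/VP.5 against K562, the largest of any tested laminin there, and -1.47 (SE 0.265, edgeR adjusted p = 0.00225) in K562/SSedit-2. Between K562/SSedit-2 and K/VP.5 it was -7.49 (SE 0.183, edgeR adjusted p = 1.44e-14). The ratio of LAMC3 to LAMC1 in CPM per kb was 0.446 ± 0.0857, 2.92 ± 0.337 and 0.226 ± 0.0992 in the 3 lines, so LAMC3 RNA was below LAMC1 RNA in K562 and K562/SSedit-2 and above it in K/VP.5.

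LAMA5, the most abundant laminin RNA in each line, and LAMB2 were called in no comparison. Per kilobase, LAMA5 was at 11.4 ± 1.15, 9.51 ± 0.844 and 8.78 ± 1.39 CPM per kb in the 3 lines, and LAMB2 was at 3.78 ± 0.23, 4.29 ± 0.171 and 3.17 ± 0.417 CPM per kb in the 3 lines (mean ± SD, n = 4). LAMA5 was lower in K562/SSedit-2 than K562 by less than 2-fold, at -0.38 (SE 0.106, edgeR adjusted p = 0.038), without overlap. LAMB2, which encodes an alternative to the beta1 chain, was lower in K562/SSedit-2 than K/VP.5 at -0.44 (SE 0.090, edgeR adjusted p = 0.000711), also short of 2-fold. The ratio of LAMB1 to LAMB2 in CPM per kb was 0.124 ± 0.0071, 0.492 ± 0.0155 and 0.0473 ± 0.00456 in the 3 lines. This ratio depends on the merged exon lengths, 18592 bases for LAMB1 and 6865 for LAMB2. In CPM, LAMB1 was above LAMB2 in K/VP.5, at means of 39.3 and 29.5. It was below LAMB2 in K562 (8.73 and 25.9) and in K562/SSedit-2 (2.8 and 21.7). LAMA4, an alpha chain known from blood vessels and muscle, went the other way in K/VP.5 from LAMB1, LAMC1 and LAMC3. It averaged 4.59 ± 0.577, 0.714 ± 0.137 and 4.73 ± 0.911 CPM in the 3 lines, lower in K/VP.5 than K562 at -2.68 (SE 0.19, edgeR adjusted p = 7.01e-09) and higher in K562/SSedit-2 than K/VP.5 at 2.72 (SE 0.191, edgeR adjusted p = 5.88e-09). LAMA5 exceeded LAMA4 in CPM per kb by a ratio of 30.1 ± 3.66, 164 ± 30.3 and 23.1 ± 6.34 in the 3 lines.

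LAMB3, the beta chain of an epithelial laminin, was near the lower limit of measurement, with averages of 0.124, 0.30 and 0.405 CPM in the 3 lines. It was called higher in K/VP.5 at 1.24 (SE 0.506, edgeR adjusted p = 0.0564) and in K562/SSedit-2 at 1.67 (SE 0.484, edgeR adjusted p = 0.0452), with overlapping libraries in both. The first call was lost without K562 replicate 1 or 4 (0.99 and 1.11) or K/VP.5 replicate 1 (0.89). The call in K562/SSedit-2 was lost without its replicate 1 or 4 (1.4 and 1.6). Summed over the 12 laminin members, expression was 205 ± 19.6 CPM in K562, 265 ± 14.2 CPM in K/VP.5 and 157 ± 22.8 CPM in K562/SSedit-2 (mean ± SD, n = 4). LAMA5 made up 79.6%, 51.3% and 80.2% of these sums. The plot of laminin levels per kilobase shows the order of the chains in each line, which depends on the exon lengths used. LAMB3 and LAMA4 were adjacent in K/VP.5 at 0.0646 ± 0.0283 and 0.0596 ± 0.0114 CPM per kb, within each other's spread.

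**Figure D4:**
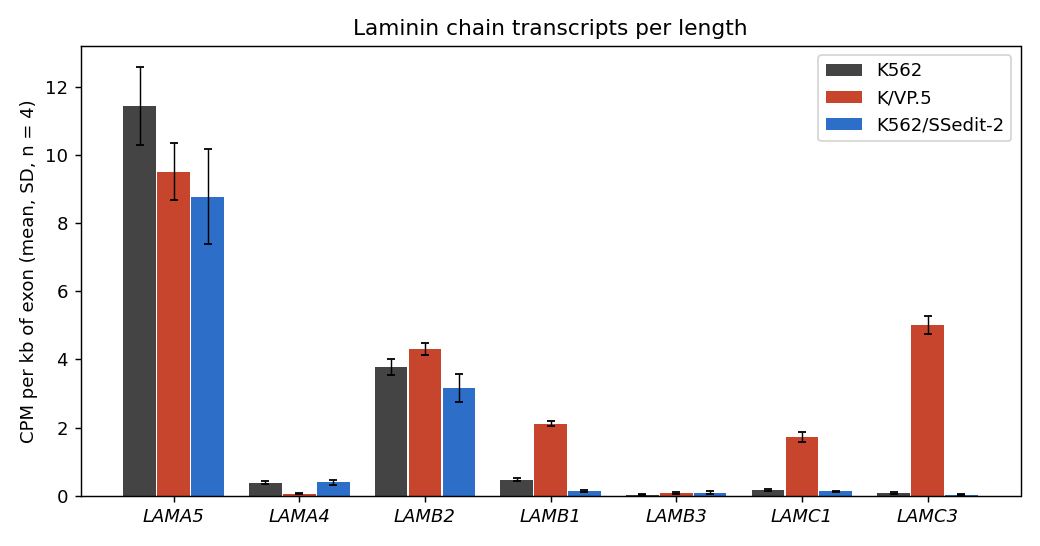
Expression of the tested laminin genes per kilobase of exon (CPM per kb). Bars are means of each line and error bars are SD (n = 4). LAMC3 lies at 0.0766 ± 0.0243, 5.01 ± 0.265 and 0.0273 ± 0.0091 CPM per kb in the 3 lines (mean ± SD).

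Integrin RNA was dominated by the fibronectin receptor in all lines. ITGB1, the beta subunit shared by most matrix integrins, was at 23.4 ± 0.368, 22.9 ± 1.42 and 24.3 ± 1.57 CPM per kb in the 3 lines, and ITGA5, its fibronectin-binding partner, was at 16.3 ± 4.36, 10.2 ± 2.2 and 13.5 ± 1.87 CPM per kb in the 3 lines (mean ± SD, n = 4). Neither was called. ITGB1 differed by -0.03 (SE 0.0627, edgeR adjusted p = 0.711) in K/VP.5, a value whose sign changed with upper-quartile scaling or without K/VP.5 replicate 4, and by 0.06 (SE 0.0627, edgeR adjusted p = 0.653) in K562/SSedit-2. ITGA5 was lower in K/VP.5 by less than 2-fold, at -0.67 (SE 0.174, edgeR adjusted p = 0.00457), and its values overlapped K562. Summed over the 24 integrin members, expression was 540.1 ± 36 CPM in K562, 487 ± 35.5 CPM in K/VP.5 and 567 ± 22 CPM in K562/SSedit-2 (mean ± SD, n = 4). ITGB1 made up 63.1%, 68.4% and 62.5% of these sums.

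ITGB5 (ENSG00000082781, chromosome 3), which pairs with the subunit of ITGAV to bind vitronectin, differed between all 3 lines. It was at 29, 29.5, 27.6 and 21.3 CPM in K562, 5.7, 6.2, 5.04 and 4.88 CPM in K/VP.5 and 68.7, 58.1, 60.5 and 51.6 CPM in K562/SSedit-2. No library overlapped between lines, and the order was K562/SSedit-2, K562 and K/VP.5 from high to low. Log2 fold changes against K562 were -2.29 (SE 0.123, edgeR adjusted p = 2.1e-10) in K/VP.5 and 1.15 (SE 0.111, edgeR adjusted p = 5.16e-06) in K562/SSedit-2. K562/SSedit-2 exceeded K/VP.5 by 3.45 (SE 0.126, edgeR adjusted p = 1.49e-12), or 10.9-fold. ITGAV itself averaged 30.8 ± 0.722, 51.1 ± 2.33 and 30.5 ± 3.18 CPM in the 3 lines and was not called, with a log2 fold change of 0.73 (SE 0.0757, edgeR adjusted p = 6.38e-07) in K/VP.5, where every library was above every K562 library. The ratio of ITGB5 to ITGAV in CPM per kb was 2.59 ± 0.389, 0.316 ± 0.0302 and 5.89 ± 1.24 in the 3 lines. For ITGA5 to ITGAV the ratio was 10.3 ± 2.73, 3.85 ± 0.694 and 8.67 ± 1.6 in the 3 lines. In the plot of integrin levels per kb, ITGB5 is above ITGAV in K562 and K562/SSedit-2 and below it in K/VP.5. The K562 order and the ratios to ITGAV depend on the merged exon lengths, 19336 bases for ITGAV and 6515 for ITGB5. In CPM, ITGB5 was below ITGAV in K562, at means of 26.8 and 30.8, and above it in K562/SSedit-2, at 59.7 and 30.5.

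**Figure D5:**
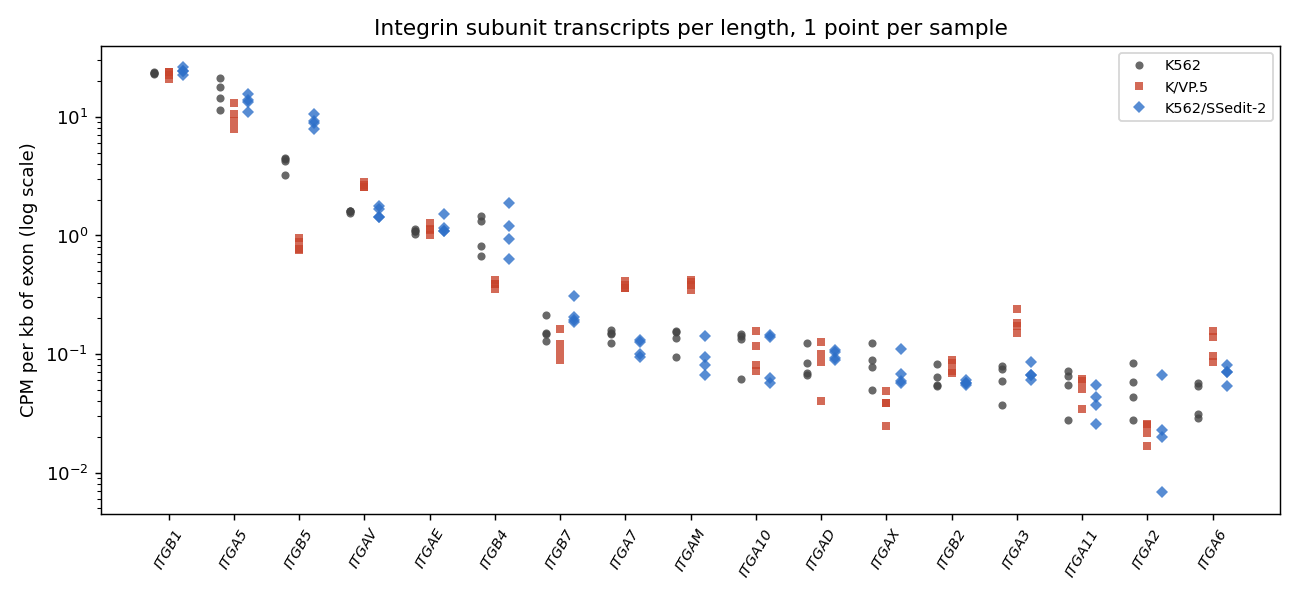
Expression of the tested integrin genes per kilobase of exon (CPM per kb, log axis), 1 point per sample (n = 4 per line). ITGB1 and ITGA5 are highest in each line, and ITGB5 lies at 4.12 ± 0.583, 0.837 ± 0.0936 and 9.16 ± 1.09 CPM per kb in the 3 lines (mean ± SD).

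ITGB4 (ENSG00000132470, chromosome 17), the partner of ITGA6 in the laminin receptor of hemidesmosomes, was at 9.81, 8.88, 5.46 and 4.55 CPM in K562, 2.87, 2.39, 2.64 and 2.61 CPM in K/VP.5 and 12.6, 8.17, 6.25 and 4.3 CPM in K562/SSedit-2. Every K/VP.5 library was below every other library, and K562 and K562/SSedit-2 had wide, overlapping ranges. Log2 fold changes were -1.45 (SE 0.295, edgeR adjusted p = 0.000706) in K/VP.5 and 0.13 (SE 0.274, edgeR adjusted p = 0.838) in K562/SSedit-2, both against K562, and 1.58 (SE 0.295, edgeR adjusted p = 0.000316) for K562/SSedit-2 against K/VP.5. The alpha subunits that bind laminin moved the other way in K/VP.5. ITGA3 averaged 0.615, 1.83 and 0.685 CPM in the 3 lines, ITGA6 0.284, 0.798 and 0.459 CPM and ITGA7 1.32, 3.43 and 1.03 CPM. Against K562, their log2 fold changes in K/VP.5 were 1.57, 1.5 and 1.38 (edgeR adjusted p = 3.66e-05, 0.000488 and 1.35e-06), with no overlap between libraries. K562/SSedit-2 was called for none of these alpha subunits against K562. ITGA3 and ITGA7 were lower in K562/SSedit-2 than K/VP.5, at -1.41 and -1.74 (edgeR adjusted p = 0.000103 and 1.35e-07).

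Collagen-binding alpha subunits were scarce. ITGA2, which pairs with ITGB1 to bind collagen, averaged 0.421, 0.176 and 0.23 CPM in the 3 lines. It was called lower in K/VP.5 at -1.26 (SE 0.502, edgeR adjusted p = 0.0518), a call lost without K562 replicate 2 (-0.95) or K/VP.5 replicate 2 (-1.14). Against K562, K562/SSedit-2 was called lower only without its own replicate 1 (-1.72, in place of -0.88), and the value was -0.52 without its replicate 2. ITGA10 and ITGA11 were called in no comparison and stayed below 1 CPM in each line, and ITGA1 was not tested.

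Integrins of leukocytes pair with ITGB2 or ITGB7. ITGAM, the alpha subunit of the complement receptor of myeloid cells, averaged 0.773, 2.21 and 0.544 CPM in the 3 lines. It was higher in K/VP.5 at 1.51 (SE 0.217, edgeR adjusted p = 2.44e-05). ITGAX, 22.2 kb from ITGAM on chromosome 16 and also a subunit of a complement receptor, averaged 0.603, 0.266 and 0.522 CPM and was lower in K/VP.5 at -1.16 (SE 0.338, edgeR adjusted p = 0.0101). That call was lost without K562 replicate 1 (-0.96) or K/VP.5 replicate 3 (-1.0). Between K562/SSedit-2 and K/VP.5, ITGAX was not called at 0.96 (SE 0.349, edgeR adjusted p = 0.0324), but passed 2-fold when any of K/VP.5 replicates 1 and 2 or K562/SSedit-2 replicates 2, 3 and 4 was left out (1.0, 1.13, 1.01, 1.07 and 1.06). ITGAD, 10.3 kb further along, averaged 0.375, 0.388 and 0.432 CPM, and ITGB2, the beta subunit that all of these need, averaged 0.465, 0.572 and 0.419 CPM. Neither was called in any comparison. ITGAE, which pairs with ITGB7 to bind E-cadherin, averaged 7.15 ± 0.33, 7.46 ± 0.695 and 8.02 ± 1.31 CPM and was not called either. The count of ITGB7 is uncertain, since 42.3% of its exon bases are shared with a gene on the other strand. ITGB7 averaged 0.711, 0.531 and 0.997 CPM in the 3 lines and was called in no comparison. Its largest difference was 0.90 (SE 0.257, edgeR adjusted p = 0.00824) for K562/SSedit-2 against K/VP.5.

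ITGA2B and ITGB3, the platelet integrin left out of the members, averaged 1.01, 0.849 and 0.897 CPM and 0.603, 0.693 and 0.901 CPM in the 3 lines. Neither was called in any comparison. COL4A2, left out with chromosome 13, was lower in K/VP.5 than K562 at -1.23 (SE 0.284, edgeR adjusted p = 0.00193) and higher in K562/SSedit-2 than K/VP.5 at 1.32 (SE 0.286, edgeR adjusted p = 0.00111).

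The 33 members that were not tested were 21 collagens, 5 laminins and 7 integrins, and 12 of them had at most 3 counts in every library. The most counts of any were 30 for COL5A1, a type V collagen chain, in K562 replicate 2. The collagens were COL2A1, COL4A3, COL4A6, COL5A1, COL5A3, COL8A1, COL9A1, COL11A1, COL12A1, COL13A1, COL14A1, COL16A1, COL19A1, COL20A1, COL21A1, COL22A1, COL24A1, COL25A1, COL26A1, COL27A1 and COL28A1. The laminins included LAMB4, and the integrins were ITGA1, ITGA4, ITGA8, ITGA9, ITGAL, ITGB6 and ITGB8. LAMB4 lies 20.3 kb from LAMB1 on chromosome 7, so a gene that rose in K/VP.5 lies beside a member with at most 2 counts in any library. Their counts were too low for the filter, so the main fit gives no result for them. With no filter on low counts, all 78 members were tested, and 18 in place of 16 were called higher and 12 in place of 9 lower in K/VP.5 than K562, next to 2485 and 1847 of all 42540 genes in that fit.

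Collagen chains are modified in the endoplasmic reticulum and crosslinked outside the cell. Gene lists around the members are set beside all tested genes, of which 8.98% were higher and 6.66% lower in K/VP.5 than K562, and 0.805% and 1.26% in K562/SSedit-2, with median log2 fold changes of 0.00675 and -0.0127. Of 32 tested genes for collagen processing, 6 were higher and 1 lower in K/VP.5 than K562, and 0 were higher and 6 lower in K562/SSedit-2, with median log2 fold changes of 0.23 and -0.15. SPARC, a collagen-binding matrix protein, averaged 2.73 ± 0.606, 34.4 ± 2.3 and 1.11 ± 0.384 CPM in the 3 lines (SD, n = 4). PLOD2, which hydroxylates lysines of collagen, averaged 2.41 ± 0.572, 20.5 ± 2.02 and 0.168 ± 0.127 CPM in the 3 lines. COLGALT2, which adds galactose to hydroxylysine, averaged 14.3 ± 2.7, 2.89 ± 0.277 and 5.05 ± 0.503 CPM in the 3 lines. Thus SPARC and PLOD2 were higher in K/VP.5, at log2 fold changes of 3.65 and 3.08, and lower in K562/SSedit-2, at -1.29 and -3.78. COLGALT2 was lower in both, at -2.29 and -1.5.

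Among 28 tested genes for other basement membrane and matrix glycoproteins, 6 were higher and 4 lower in K/VP.5, and 1 higher and 2 lower in K562/SSedit-2, with median log2 fold changes of 0.0445 and -0.14. FN1, which encodes fibronectin, the ligand of the ITGA5 and ITGB1 receptor, averaged 76.4 ± 26.2, 1089.8 ± 100 and 42.5 ± 10.7 CPM in the 3 lines (SD, n = 4), a log2 fold change of 3.84 (SE 0.209, edgeR adjusted p = 2.55e-10) in K/VP.5. The receptor genes themselves were not called in K/VP.5. EGFLAM, which encodes the dystroglycan ligand pikachurin, averaged 10.5 ± 3.22, 7.41 ± 0.387 and 2.15 ± 0.729 CPM in the 3 lines and was lower in K562/SSedit-2.

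Integrin adaptors link the receptor tails to actin. Of 40 tested, 4 were higher and 5 lower in K/VP.5 (8.98% and 6.66% of all tested genes), and 1 was higher and 0 lower in K562/SSedit-2 (0.805% and 1.26%), with medians of -0.21 and -0.0688. FERMT3, the kindlin of blood cells that activates integrins, averaged 283 ± 17.4, 10.5 ± 0.572 and 301 ± 19 CPM in the 3 lines (SD, n = 4), a log2 fold change of -4.76 (SE 0.0798, edgeR adjusted p = 3.05e-16) in K/VP.5. TLN2, a talin, averaged 1.6 ± 0.253, 6.6 ± 0.515 and 1.2 ± 0.327 CPM in the 3 lines and was higher in K/VP.5. Among 14 tested cell-surface ligands of integrins, 5 were higher and 0 lower in K/VP.5, and 0 higher and 1 lower in K562/SSedit-2, with medians of 0.51 and -0.12. JAM3, an adhesion molecule of cell junctions, averaged 0.564 ± 0.228, 6.13 ± 0.313 and 0.551 ± 0.12 CPM in the 3 lines.

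Of 25 tested receptors for matrix other than integrins, 6 were higher and 2 lower in K/VP.5, and 0 higher and 2 lower in K562/SSedit-2, with medians of -0.00598 and -0.26. CD9, a tetraspanin that associates with integrins, averaged 0.0646 ± 0.0553, 7.71 ± 0.895 and 0.165 ± 0.0592 CPM in the 3 lines (SD, n = 4). GP6, the collagen receptor of platelets, averaged 6.8 ± 1.51, 1.8 ± 0.425 and 10.9 ± 2.42 CPM in the 3 lines and was lower in K/VP.5 at -1.91 (SE 0.205, edgeR adjusted p = 9.55e-07). SDC1, the heparan sulfate carrier syndecan, averaged 4.57 ± 0.797, 8.45 ± 0.978 and 2.0 ± 0.40 CPM in the 3 lines and was lower in K562/SSedit-2 than K562. Of 31 tested proteases of the matrix and their inhibitors, 6 were higher and 5 lower in K/VP.5, and 0 higher and 2 lower in K562/SSedit-2, with medians of 0.0175 and -0.22. ADAMTS1, a secreted protease, averaged 0.18 ± 0.223, 10.2 ± 1.32 and 0.0936 ± 0.0523 CPM in the 3 lines. PLAU, the urokinase that activates plasminogen, averaged 5.04 ± 0.935, 0.825 ± 0.208 and 2.12 ± 0.521 CPM in the 3 lines and was lower than K562 in both derived lines.

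Between K562/SSedit-2 and K/VP.5, 6.2% of all tested genes were higher and 9.62% lower in K562/SSedit-2. Of the collagen processing genes, 0 of 32 were higher and 7 lower, of the matrix glycoproteins 1 and 8 of 28, of the integrin adaptors 5 and 4 of 40, of the other matrix receptors 1 and 7 of 25, of the cell-surface ligands 0 and 5 of 14, and of the proteases and inhibitors 3 and 7 of 31. FN1 had a log2 fold change of -4.68 (SE 0.218, edgeR adjusted p = 3.32e-11) in this comparison, and FERMT3 of 4.85 (SE 0.0801, edgeR adjusted p = 2.42e-16).

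Markers of other cell types were read in the same libraries. Endothelial markers summed to at most 0.203 CPM in any library, with CDH5 at 0 in all. Epithelial markers summed to 156 to 196 CPM in K562, 122 to 137 CPM in K/VP.5 and 167 to 183 CPM in K562/SSedit-2, nearly all of it EPCAM. T cell markers, led by CD3D in K562 and K562/SSedit-2, summed to 32.3 to 63.8, 15.8 to 22.2 and 53.9 to 74.1 CPM in that order. The sums of monocyte markers, led by LYZ in K562, were 2.11 to 2.48, 0.782 to 1.57 and 1.43 to 2.01 CPM. Megakaryocyte markers, led by GP6 in K562 and K562/SSedit-2, summed to 8.22 to 10.2, 3.69 to 5.19 and 10.8 to 16.2 CPM, with PF4 and GP9 at 0 in every library. Their part in the matrix gene results was not tested.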

How the data were processed

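The authors mapped paired-end reads of 12 samples to GRCh38 with HISAT2 and deposited whole featureCounts gene counts, without normalization, for 60671 Ensembl genes. Positions and symbols came from GENCODE 44, in which 60401 of the IDs were found. The annotation release, strand setting and treatment of multi-mapping reads are not stated, so counts of overlapping genes and of paralogs are uncertain. In R 4.3.3, edgeR 4.0.16 filtered genes (filterByExpr, minimum count 10), which left 18626, computed TMM factors and fitted all 12 samples by line. The lines were compared in pairs with its quasi-likelihood F test, adjusting over the tested genes by Benjamini-Hochberg, at a fold change of 2 and an adjusted p under 0.1, the cutoffs the study used. Library size for CPM was the count in tested genes times the TMM factor. The standard error (SE) was taken as the size of the log2 fold change over the root of F. Levels per kb use the merged exon length, which joins the exons of all annotated transcripts of a gene. Orders and ratios between genes in CPM per kb depend on that length.

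Members called in at least 1 comparison with a mean of at least 5 CPM in 1 line are given in every sample, and other called members, members of at least 5 CPM and neighbours on a chromosome by line means. From each gene list, those with at least 5 CPM and the largest rise or fall against K562 are named. The members and the lists were chosen with earlier results of these data known.

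Samples carry replicate numbers, and pairing was checked by the correlation across genes of the samples' deviations from their line means. Between K562/SSedit-2 and K562, samples of the same number correlated at 0.292, 0.141, 0.252 and 0.135, with a mean of 0.205 against -0.0666 for other numbers, and 8 of 8 samples correlated best with their own number. The numbers pair there, so the fit with the number as a block is given where it changes a call. Alternatives were RLE and upper-quartile scaling, DESeq2 1.42.0, limma 3.58.1 voom, no filter or 1 CPM in 4 samples, only the compared lines, the block, no fold cutoff, an adjusted p under 0.05, and each replicate left out. No library duplicated another: over 18 pairs within lines, chi-square per degree of freedom was 5.15 to 61.8. The steps were tested on data simulated for K/VP.5 against K562, with the same spread for all genes. Changes in genes under a mean of 1 CPM and libraries set apart were not simulated, so calls of those kinds were not checked. Plots were drawn in Python 3.11.15 with matplotlib 3.10.9. Reads, protein and drug response were not analysed here. Some untested members and 1 marker list are not reported here.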

Additional observations from a re-analysis of the deposited data

Results flagged for a closer look

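Over 105 groups of 4 samples of a member, or of TOP2A, in a line, 6 held a library set apart from the other 3. Its gap to the nearest library was large for the range of the group by Dixon's ratio, and chance does so in about 1 in 20 groups. COL15A1 was at 1.0 CPM in K562/SSedit-2 replicate 1, where the other replicates lay between 0.537 and 0.616. COL3A1 was set apart in K/VP.5 replicate 2, at 0.213 CPM against 0.10 to 0.116, and in K562/SSedit-2 replicate 1, at 0.809 CPM against 0.188 to 0.239. COL5A2 was low in K562 replicate 1, at 1.4 CPM against 2.72 to 2.94. COL6A5 was low in K562 replicate 2, at 18.6 CPM against 22.9 to 23.4. ITGAE was high in K562/SSedit-2 replicate 4, at 9.96 CPM against 7.19 to 7.65. The 105 groups do not cover every tested member. ITGB7, which was not among them, was at 1.38 CPM in K562/SSedit-2 replicate 3 against 0.835 to 0.921.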

How the results depend on the processing

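Single members were followed through the alternative fits if called in at least 1 comparison or at a mean of at least 5 CPM in 1 line. Over 102 pairs of such a member and a comparison, 53 were called. Of these, 44 stayed called in every one of the 16 alternative fits that gave a value. The number of members higher in K562/SSedit-2 than K562 was 1 in place of 2 with DESeq2, with the filter of 1 CPM in 4 samples and with only these lines, fits in which LAMB3 had no adjusted p or was not tested. The number higher in K562/SSedit-2 than K/VP.5 was 8 in place of 5 with no fold change cutoff, where smaller changes count, and the number lower 22 in place of 15, next to 4874 and 5181 of all 18626 tested genes. The filter of 1 CPM in 4 samples gave 6 in place of 9 members lower in K/VP.5 and 4 in place of 6 lower in K562/SSedit-2, both against K562, next to 834 and 154 of 14238 genes, with 30 members tested. Against the same line, no filter gave 12 and 9, next to 1847 and 372 of all 42540 genes in that fit. With 1 replicate left out, members higher in K/VP.5 than K562 numbered 15 to 18 and lower 8 to 9. For K562/SSedit-2 against K562 they numbered 1 to 2 higher and 3 to 9 lower, and against K/VP.5 4 to 7 and 15 to 16. No called value changed sign. Small values that were not called did so in 12 pairs, and the cause was not tested. With upper-quartile scaling, ITGB1 was 0.0353 for K/VP.5 against K562 and ITGAV 0.0191 for K562/SSedit-2 against K562. For the latter, ITGAV was 0.0052 with the CPM filter and 0.00142 with only these lines. With limma voom, ITGA2 was -0.0201 for K562/SSedit-2 against K/VP.5. The other sign changes came from leaving out a replicate. For K/VP.5 against K562 the values then ran from -0.0123 to 0.11 for ITGAE (negative without K/VP.5 replicate 1) and -0.0589 to 0.0122 for ITGB1 (positive without K/VP.5 replicate 4). For K562/SSedit-2 against K562 they ran from -0.11 to 0.34 for COL15A1 (negative without K562 replicate 3 or K562/SSedit-2 replicate 1), -0.49 to 0.0958 for COL1A1 and -0.32 to 0.0949 for COL1A2 (both positive without K562 replicate 2), -0.0287 to 0.29 for ITGA3 (negative without K562 replicate 4) and -0.0572 to 0.0436 for ITGAV (positive without K562 replicate 4 or K562/SSedit-2 replicate 1 or 3). They also ran from -0.46 to 0.029 for ITGAX (positive without K562 replicate 1), -0.20 to 0.35 for ITGB4 (negative without K562 replicate 4 or K562/SSedit-2 replicate 1) and -0.0617 to 0.16 for LAMA4 (negative without K562 replicate 3 or K562/SSedit-2 replicate 4). For K562/SSedit-2 against K/VP.5 they ran from -0.44 to 0.73 for ITGA2 (negative without K562/SSedit-2 replicate 1) and -0.0131 to 0.19 for ITGAE (negative without K562/SSedit-2 replicate 4).

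With the replicate number as a block, 52 of the 53 calls were kept, 1 was lost (COL6A1) and 1 was gained (COL6A3), both for K562/SSedit-2 against K562. For K/VP.5 against K562, pairs of the same number correlated at 0.269, 0.0434, -0.00265 and 0.117, and 3 of 8 samples correlated best with their own number. For K562/SSedit-2 against K/VP.5 the values were 0.161, 0.0894, -0.0257 and -0.0947, and 4 of 8. In these comparisons the numbers do not pair, and the block changed no call.

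Members under about 1 CPM rest on few counts per library, and the 33 that were not tested have no result in the main fit. With 1 clone for each derived line, clone and treatment cannot be told apart. Strand setting and annotation release are unknown, which leaves COL18A1 and ITGB7 with uncertain counts where genes on the other strand overlap them.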
